A study of Mus musculus with 5 samples.

Results

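The 8 genes described here were Igkc, Ighm, Ighd, Igha, Ighg2b, Iglc1, Iglc2 and Jchain, taken by symbol from the 31053 genes of the count tables. The symbols were picked with earlier results on their levels in these libraries in view, so their library levels and the ratios between libraries are a description and carry no test. The 5 libraries came from BALB/c mice of 4 to 8 weeks. Whole bone marrow (BM) was taken from untreated mice (naive) and from mice given cyclophosphamide (CTX), a DNA crosslinking drug, at 150 mg/kg intraperitoneally and killed on day 2 (D2 CTX) or day 7 (D7 CTX). Each whole BM library pooled equal cell numbers of 3 mice, after red cell lysis and removal of dead cells, and the labels call the cells BM mononuclear cells and CD45+. A further pair of libraries held CD11b+Ly6Chi monocytes sorted from naive and CTX mice to a stated purity over 98%; the labels give no day for the treated one, and the number of mice behind each was not given. With 1 library per group there was no replicate check, so every interval below is a 95% interval for counting error in that library and says nothing about the spread between mice.

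An antibody is built from heavy and light chains, and each chain joins a variable part, put together by gene rearrangement, to a constant part. Ighm and Ighd encode the constant part of the heavy chains of IgM and IgD, Igha that of IgA and Ighg2b that of IgG2b. Igkc encodes the constant part of the kappa light chain, and Iglc1 and Iglc2 those of lambda light chains. Jchain encodes the small J chain that links IgM and IgA units into polymers. In BM, large pre-B cells make a mu heavy chain, small pre-B cells rearrange light chains, immature B cells carry IgM, mature B cells carry IgM with IgD, and plasma cells secrete antibody of 1 kind at very high rates.

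In the genome build of the count tables (mm10, GRCm38), Igkc lies on the plus strand at chr6:70726435-70726966 and Jchain on the minus strand at chr5:88519809-88527891. The heavy chain genes lie on the minus strand of chromosome 12 in the order of transcription Ighm (chr12:113418558-113422730), Ighd (chr12:113406604-113416324), Ighg2b (chr12:113302965-113307933) and Igha (chr12:113254830-113260236). The lambda genes lie on the minus strand of chromosome 16, Iglc2 at chr16:19198396-19200351, Iglc3 at chr16:19065230-19065681 and Iglc1 at chr16:19061618-19062071. The annotation types Jchain as protein coding and each of the others as an immunoglobulin constant gene.

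The lambda constant genes are alike in sequence, Iglc2 and Iglc3 most of all, which limits how far their counts can be told apart. The first 100 bases of the single coding exon of each are printed from the GRCm38 genome, 5′ to 3′ on the gene's strand, with capitals at the 26 positions at which the 3 genes are not all alike. They are shown because 1 plasma-like cell described further on had its lambda counts split over Iglc2 and Iglc3.
Iglc1 (chr16:19061972-19062071): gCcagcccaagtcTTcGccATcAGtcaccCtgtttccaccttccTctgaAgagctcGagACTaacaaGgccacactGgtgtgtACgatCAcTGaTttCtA
Iglc2 (chr16:19198753-19198852): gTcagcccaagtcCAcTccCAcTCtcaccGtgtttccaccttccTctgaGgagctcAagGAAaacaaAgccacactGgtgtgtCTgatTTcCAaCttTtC
Iglc3 (chr16:19065582-19065681): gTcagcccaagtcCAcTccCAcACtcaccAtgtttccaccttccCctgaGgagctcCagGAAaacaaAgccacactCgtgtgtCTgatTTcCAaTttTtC
Over the coding part Iglc2 and Iglc3 were 96.2% identical, while Iglc1 was 73.4% identical to Iglc2 and 74.5% to Iglc3. By identity alone, values of Iglc2 and Iglc3 are uncertain where both were counted in the same cells, and those of Iglc1 less so. The counts did not all follow this order. In the 2 naive plasma-like cells of mainly Iglc2, the counts of Iglc2, Iglc1 and Iglc3 were 5912, 466 and 1, and 612, 51 and 0. Why Iglc1 was counted there was not tested, so its values are uncertain too. The build is that of C57BL/6 mice, which carry Ighg2c where BALB/c mice carry Ighg2a, so reads of IgG2a cells could be split over Ighg2c and Ighg2b.

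After the study's own cell filter (at least 200 genes and under 20% mitochondrial UMIs, the unique molecular identifiers that count RNA molecules), 7104 naive, 6126 D2 CTX and 8290 D7 CTX whole BM cells and 1891 naive and 2564 CTX sorted cells were kept. The kept cells held 22279758 to 67921924 UMIs per library, with a median of 3033.5 to 7189.5 UMIs per cell in whole BM and 9694 to 10299 in sorted cells, so D7 CTX cells were read most deeply among the whole BM libraries. Between 1 and 15 kept barcodes were shared by any pair of libraries. Levels are given in CPM, UMIs of the gene per 1000000 UMIs of the library or class, and where 3 values stand in a row with no library named, they are those of naive, D2 CTX and D7 CTX BM in turn. Cell classes came from clusters drawn with all immunoglobulin genes and Jchain taken out, named by fixed marker genes, and are written as "-like" for that reason.

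The D2 CTX library held more of the members than the naive library, and the D7 CTX library held less. The 8 members summed to 9279 CPM in the naive library, to 19238 CPM at D2 and to 2437 CPM at D7. Igkc, the most abundant, stood at 5411, 11037 and 1440 CPM. Ighm stood at 2590, 4618 and 500.4 CPM. Both were thus highest at D2 and lowest at D7, with no overlap of the counting intervals. Igha followed the same order at 438.3, 1446 and 203.1 CPM, and so did Jchain at 383.0, 1212 and 170.9 CPM. The lambda genes did too, Iglc1 at 133.0, 311.4 and 43.1 CPM and Iglc2 at 277.0, 395.8 and 75.6 CPM. The scarcest members were Ighd, at 29.9, 35.2 and 1.62 CPM, and Ighg2b, at 15.8, 181.9 and 1.68 CPM.

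**Figure D1:**
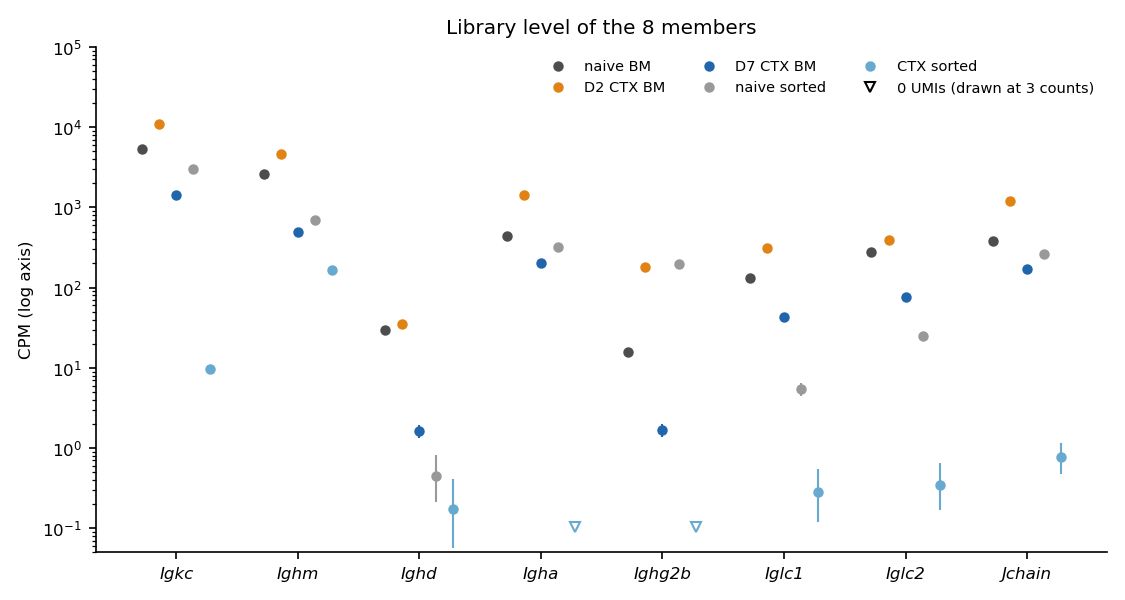
Level of each member in each of the 5 libraries in CPM (log axis), 1 point per library, bars for the 95% counting interval and open triangles at the level of 3 counts where no UMI was found. The D2 CTX library (19238 CPM over the 8 members) sits above the naive one (9279) and the D7 CTX one (2437) below it for every member; in the sorted libraries every member is lower in CTX than in naive cells, by the least for Ighd.

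As log2 ratios of D2 CTX to naive, the members ran from 0.24 (0.12 to 0.35) for Ighd to 3.53 (3.42 to 3.64) for Ighg2b. Igkc had 1.03 (1.02 to 1.04), Ighm 0.83 (0.82 to 0.84), Igha 1.72 (1.70 to 1.75), Iglc1 1.23 (1.18 to 1.27), Iglc2 0.51 (0.48 to 0.55) and Jchain 1.66 (1.64 to 1.69). All 8 members passed the filter on low values for this pair of libraries (at least 200 UMIs over both and at least 20 CPM in 1), and 5 of them were at least 1 log2 unit higher on the log2(CPM + 1) scale, beside 5.4% of the 6221 genes that passed. None was at least 1 log2 unit lower, beside 3.21% of those genes. The median over the 8 members was 1.12, against 0.17 over all genes that passed. Scaled by the median of the gene ratios in place of the total, 4 of the 8 members were at least 1 unit higher, beside 3.05% of genes higher and 4.48% lower.

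In D7 CTX all 8 members were lower than in naive BM. The log2 ratio was -1.91 (-1.92 to -1.90) for Igkc, -2.37 (-2.39 to -2.35) for Ighm and -4.21 (-4.50 to -3.92) for Ighd. Igha and Jchain were the least reduced, at -1.11 (-1.14 to -1.08) and -1.16 (-1.20 to -1.13). Iglc1 had -1.62, Iglc2 -1.87 and Ighg2b -3.23. The 7 members that passed the filter, all but Ighg2b, were each at least 1 log2 unit lower, beside 22.3% of 5608 genes, and 1.41% of genes were at least 1 unit higher. The median over all 8 was -1.88, against -0.58 over all genes that passed, so the whole distribution was shifted down in that library. Scaled by the median of the gene ratios in place of the total, 6 of the 8 members were at least 1 log2 unit lower. Among these 6 was Ighg2b, which did not pass the filter. Of the genes that passed, 6.31% were lower and 8.11% higher. Against D2 CTX, the log2 ratio of D7 CTX ran from -6.76 for Ighg2b to -2.39 for Iglc2. All 8 members passed there and all 8 were at least 1 unit lower, beside 34.1% of 5985 genes, and 1.14% of genes were at least 1 unit higher. The median over members was -2.88, against -0.71 over all genes that passed. With the scaling by gene ratios, all 8 members were lower there too, beside 8.32% of genes lower and 7.17% higher. The comparisons with naive BM share the naive library.

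Most UMIs of the 8 members together came from few cells, the plasma-like ones. The plasma-like class held 98 cells over the 3 libraries, 36 of 7104 naive cells (0.507%, exact Clopper-Pearson interval 0.355 to 0.701), 46 of 6126 at D2 (0.751%, 0.550 to 1.0003) and 16 of 8290 at D7 (0.193%, 0.110 to 0.313). The log2 ratio of these shares was 0.57 (-0.09 to 1.24) for D2 CTX against naive, an interval that spans 0, and -1.39 (-2.34 to -0.51) for D7 CTX against naive. The cluster was led by Derl3, which acts in the disposal of misfolded secretory proteins, Chst1 and Tnfrsf17, the receptor BCMA of plasma cells. All 10 plasma markers, none of them an immunoglobulin gene, were higher in it than in any other cluster in naive and D2 CTX BM. The cluster was named by these same markers, so their rank describes it and is no separate support for its name. At D7 it led for 8 of 10, with Prdm1 at 39.0 CPM (57.0 CPM in another cluster) and Fkbp11 at 81.9 CPM (262.0 CPM in another cluster).

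Of the UMIs of the 8 members, the plasma-like cells held 72.0%, 81.2% and 90.4%. The B lineage (large pre-B-like, small pre-B-like, and immature and mature B-like cells together) held 23.9%, 14.0% and 4.73%, and all other cells 4.12%, 4.77% and 4.86%. Members differed widely in this split. Igha UMIs lay in plasma-like cells to 96.9%, 98.0% and 96.3%, and Jchain UMIs to 90.7%, 97.6% and 97.8%. Igkc followed at 80.7%, 87.5% and 95.9%, and Ighm at 51.5%, 66.8% and 72.9%. The lambda genes and Ighd lay elsewhere in part or in full. Of Iglc1 UMIs only 15.96%, 17.1% and 47.0% lay in plasma-like cells, and 77.0%, 75.5% and 11.6% in the B lineage. Of Iglc2 UMIs 61.2%, 12.1% and 97.3% lay in plasma-like cells, and 35.8%, 80.2% and 1.93% in the B lineage. Ighg2b had 86.2% and 96.1% of its UMIs in plasma-like cells of naive and D2 CTX BM, and 10.5% of its 114 UMIs at D7. Ighd had 0 UMIs in the 98 plasma-like cells and 94.0%, 89.4% and 66.4% of its UMIs in the B lineage.

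Within plasma-like cells the 4 members with most UMIs there differed less between libraries than their library levels did, while Ighg2b and the lambda genes differed more widely. Summed over the 8 members it was 630218, 558830 and 583580 CPM. Igkc stood at 412005, 345556 and 365965 CPM, and Ighm at 126032, 110370 and 96636 CPM. Igha stood at 40104, 50714 and 51808 CPM, and Jchain at 32793, 42322 and 44266 CPM. Ighg2b stood at 1283, 6252 and 46.8 CPM, Iglc1 at 2004, 1901 and 5374 CPM and Iglc2 at 15998, 1716 and 19483 CPM, and 1 cell held from 47.6% to 100% of the UMIs in each of these values but that of Iglc2 at D2 (8.97%). Because the members fill most of the total in these cells, a CPM here cannot rise far. A plasma-like cell had a median of 16345.5 UMIs, of which a median of 61.3% (range 9.54% to 79.0%) were immunoglobulin genes or Jchain, and 87 of the 98 cells were at or above 50%. Median UMIs per cell were 12622.5, 20162.5 and 15886.

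The B lineage made up a smaller share of the cells at D7 and a like share at D2. It held 1987 of the 7104 naive cells (28.0%, 26.9 to 29.0). At D2 it held 1668 of 6126 (27.2%, 26.1 to 28.4), and at D7 215 of 8290 (2.59%, 2.26 to 2.96). Of the 215 D7 cells, 165 were large pre-B-like, 43 small pre-B-like and 7 immature and mature B-like, so levels over the D7 B lineage are those of another mixture. In D2 CTX the large pre-B-like share was 2.79% (2.39 to 3.24), against 10.9% (10.2 to 11.6) in naive, while the immature and mature B-like share was 14.3% (13.5 to 15.2), against 6.73% (6.16 to 7.34). The large pre-B-like class joined unlike clusters. Its larger naive cluster had 606 cells in naive and 48 in D2 CTX, and its other cluster had 167 and 123. By marker score this other cluster was nearer to small pre-B cells (81) than to large pre-B cells (66).

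**Figure D2:**
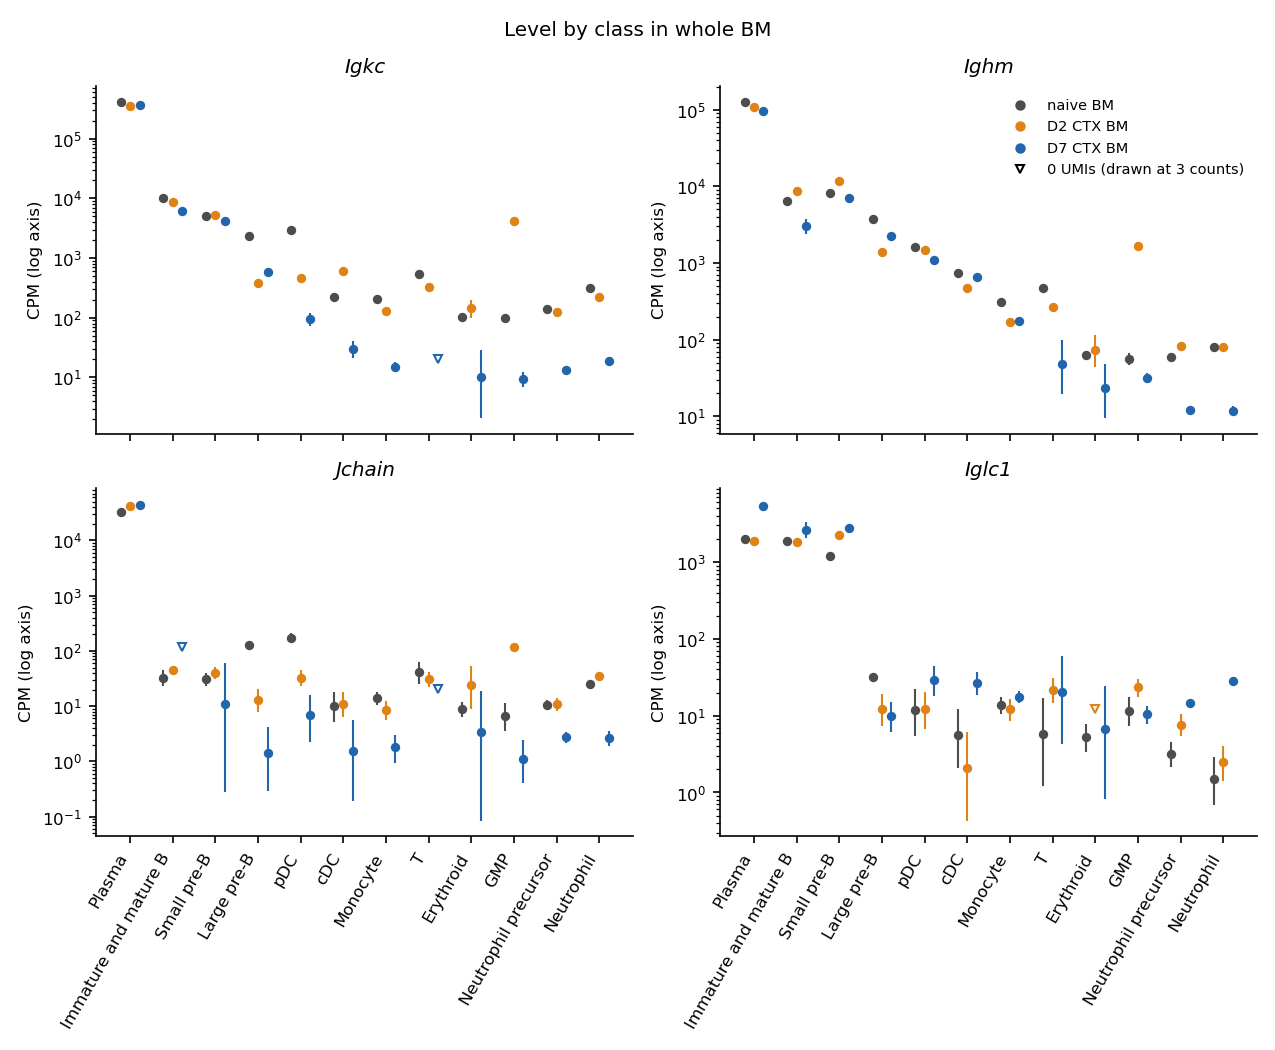
Level of Igkc, Ighm, Jchain and Iglc1 in CPM (log axes) in 12 classes of whole BM cells, 1 point per library with the 95% counting interval, open triangles at 3 counts where no UMI was found. Plasma-like cells lie far above all classes for Igkc (345556 to 412005 CPM) and Jchain (32793 to 44266 CPM), the high D2 GMP-like points of Igkc and Ighm rest on 1 cell, and Iglc1 at D7 stays between 6.15 and 57.0 CPM in the named classes outside plasma-like and B lineage cells.

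Each plasma-like cell was nearly pure in its heavy chain. By the heavy chain constant gene with most UMIs, 62 of 98 were Ighm cells, 25 Igha, 4 Ighg3, 3 Ighg2b, 2 Ighg1, 1 Ighg2c, 1 Ighe and 0 Ighd, which allows up to 3.69% for Ighd by the exact interval. In 97 of 98 cells that gene held at least 90% of the heavy chain UMIs, with a median of 100%. The exception was the Ighg2c cell, at 79.8%, whose other heavy chain UMIs were mainly Ighg2b (625 UMIs). Ighm cells made up 24 of the 36 naive plasma-like cells (66.7%, 49.0 to 81.4), 27 of 46 at D2 (58.7%, 43.2 to 73.0) and 11 of 16 at D7 (68.8%, 41.3 to 89.0). Igha cells made up 8 (22.2%), 13 (28.3%) and 4 (25.0%). The intervals of these shares overlapped widely, so no difference in isotype between libraries was detectable at this number of cells.

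By light chain, 94 cells were Igkc cells, 2 Iglc2, 1 Iglc1 and 1 Iglc3. The main light chain gene held at least 92.3% of the light chain UMIs in every naive and D2 CTX cell. In D7 CTX the Iglc3 cell had 51.3%, and the same cell held 4374 Iglc2 UMIs beside 4667 of Iglc3, the near copies printed above. It carried 85.2% of all Iglc2 UMIs of the D7 CTX library. Likewise 1 naive cell with 5912 Iglc2 UMIs carried 46.3% of that gene's UMIs in naive BM.

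For the rare isotypes the library level was therefore the count of 1 or a few cells. In D2 CTX, 1 cell held 4609 of the 6174 Ighg2b UMIs (74.7%), and all 3 Ighg2b cells came from that library. In naive BM, 1 cell held 625 of 726 Ighg2b UMIs (86.1%), and it was the Ighg2c cell. Ighg1, Ighg2c and Ighe, which were not among the 8, showed the same pattern, with 4459 of 4532 Ighg1 UMIs of D2 CTX, 2480 of 2485 Ighg2c UMIs of naive and 762 of 763 Ighe UMIs of naive in 1 cell each. On the log2(CPM + 1) scale the ratio of Ighg2b in D2 CTX against naive was 3.45 with all kept cells. It fell to 1.88 without all barcodes of at least 1000 immunoglobulin UMIs. Without those barcodes the D2 CTX to naive ratio on this scale was 0.39 for Igkc, 0.34 for Ighm, 0.69 for Igha and 0.16 for Jchain. Iglc2 had 1.54 in place of 0.51. Counted with no filter on low values, 3 in place of 5 members were at least 1 log2 unit higher. Of the genes that passed that filter, 5.48% were at least 1 unit higher. The D7 CTX to naive ratios, also on the log2(CPM + 1) scale, became -4.13 for Igkc, -3.05 for Ighm, -2.77 for Igha and -2.59 for Jchain. With all kept cells they were -1.91, -2.37, -1.11 and -1.16 on that scale. That of Ighg2b became -0.35 in place of -2.65. Adding 1 CPM draws ratios of such low levels towards 0.

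Jchain was unequal among plasma-like cells. It ran from 0 to 2637 UMIs per cell with a median of 515.5, and 68 of 98 cells had at least 100 UMIs. Igha cells had a median of 1371 Jchain UMIs, Ighm cells 137.5 and the 10 cells of IgG genes 360.5, and the Ighe cell had 1946. As a share of the immunoglobulin and Jchain UMIs of the cell, the median was 12.8% (2.34 to 24.9) in Igha cells and 3.56% (0 to 13.8) in Ighm cells. Igha cells were above Ighm cells in each library, at 7.94% against 2.30% (naive), 15.1% against 2.75% (D2) and 10.5% against 6.25% (D7). The ranges of the cells overlapped in naive and D7 CTX BM, and in D2 CTX the Igha cells (10.4% to 24.9%) lay just above the Ighm cells (0.109% to 10.3%). Cells of 1 library share their source and are not replicates. The IgG group, whose secreted antibody is a monomer, still held Jchain at a median of 5.21% (1.74 to 11.9).

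**Figure D3:**
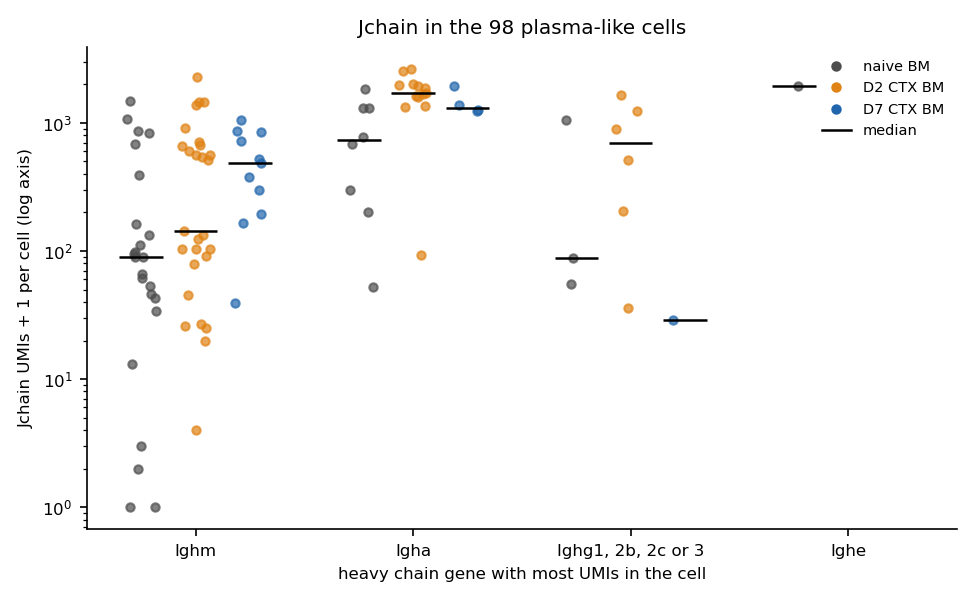
Jchain UMIs + 1 (log axis) in each of the 98 plasma-like cells, by the heavy chain gene with most UMIs and by library; points are cells, set apart sideways for sight, and black lines are medians per library. Ighm cells spread from 0 to 2269 UMIs, while 23 of 25 Igha cells have at least 100.

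Along the B lineage, the ratio of Ighm to Ighd set the B-like clusters apart from the pre-B-like ones. It did not set the large apart from the small pre-B-like cells. Ighm was 124.8 and 84.9 times Ighd in UMIs in the naive clusters of large pre-B-like cells (led by genes such as Vpreb1 and Igll1 of the surrogate light chain), and 101.4 times in the naive small pre-B-like cluster (with Rag1 among its leading genes). It was 31.3 times in the naive B-like cluster led by Ms4a1 and 2.52 times in the one led by Cr2 and Fcer2a, the receptors CD21 and CD23 of mature B cells. In this Cr2-led cluster 89.8% of naive cells had an Ighd UMI, against 10.8% to 31.6% in the other B lineage clusters. Its ratio of Ighm to Ighd was 7.49 in D2 CTX, where Ighm stood at 5273 CPM (3294 in naive) and Ighd at 703.7 CPM (1309 in naive). At D7 it held 3 cells, with 41 Ighm and 5 Ighd UMIs, too few to compare.

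Lambda transcripts were common before the B-like stage. They made up 37.1% of light chain constant UMIs in naive small pre-B-like cells, against 56.1% and 54.0% at D2 and D7, and 3.31% in the larger naive cluster of large pre-B-like cells. By share of UMIs, most B-like cells were mixed in their light chains. Most plasma-like cells also held UMIs of both kinds, with 0 Iglc2 UMIs in only 7 of 98. Their main light chain gene held a median of 99.2% of light chain UMIs. Of naive cells of the Ms4a1-led cluster with at least 5 light chain UMIs, 201 of 253 had less than 90% of them from either kappa or lambda, and of D2 CTX cells 617 of 690. In naive large pre-B-like cells of the larger cluster it was 24 of 466. Free RNA can add kappa UMIs to every cell, and its part in these mixed cells was not tested. Over the whole B lineage, Iglc1 stood at 445.6, 1460 and 152.8 CPM and Iglc2 at 431.0, 1970 and 44.4 CPM. Igkc stood at 3678 CPM there in the naive library and at 5478 CPM at D2, and Ighm at 4851 and 7547 CPM.

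Jchain was nearly absent from the B lineage. Its 1055 UMIs there in naive BM (99.6 CPM) fell to 17.5 CPM without the highest cell, a large pre-B-like barcode with 16920 immunoglobulin and Jchain UMIs among 35154. In all, 5 cells outside the plasma-like class had at least 1000 such UMIs, and each moved its class. The others were a naive pDC-like cell (1246 of 3504 UMIs), a D2 CTX GMP-like cell (14440 of 70350), a D2 CTX cDC-like cell (1106 of 21871, of which 321 were Igha) and a D7 CTX cell of an unnamed cluster (1706 of 2197). GMP, cDC and pDC stand for granulocyte-monocyte progenitors and conventional and plasmacytoid dendritic cells. Without the highest cell Igkc went from 4196 to 51.0 CPM in D2 CTX GMP-like cells, from 600.1 to 69.7 CPM in D2 CTX cDC-like cells and from 2936 to 1532 CPM in naive pDC-like cells.

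Most other classes held a low level of every abundant member. In neutrophil-like cells, which should lack these genes, Igkc stood at 317.7, 220.3 and 18.7 CPM, and the 8 members together at 454.0, 394.5 and 63.1 CPM. Thinned to 1000 UMIs per cell, the share of neutrophil-like cells with an Igkc UMI was 25.0% (23.0 to 27.0), 15.97% (14.3 to 17.7) and 2.03% (1.57 to 2.59), over the 1825, 1860 and 3148 cells deep enough of 1940, 2276 and 3169. The unthinned shares were 46.3%, 35.5% and 8.65%, at median depths of 2893.5, 2920 and 5318 UMIs. So D7 CTX, the most deeply read of the 3, had the least of this background. T-like cells had 541.8 CPM of Igkc in naive and 333.1 in D2 CTX, and in D7 CTX 0 UMIs in 33 cells, which allows up to 20.6 CPM at 3 counts.

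The members' proportions in neutrophil-like cells can be set beside those in plasma-like cells and the B lineage. Where the UMIs in neutrophil-like cells came from was not tested. Jchain to Igha was 0.818, 0.835 and 0.854 in plasma-like cells, and 1.04, 1.08 and 2.37 in neutrophil-like cells. Igkc to Igha was 10.3, 6.81 and 7.06 in plasma-like cells and 12.99, 6.86 and 16.8 in neutrophil-like cells, against 193.7 in the naive B lineage. Ighm to Igkc was 0.306, 0.319 and 0.264 in plasma-like cells, 0.252, 0.364 and 0.631 in neutrophil-like cells and 1.32 in the naive B lineage. In naive BM the neutrophil-like ratios of Igkc to Igha and of Ighm to Igkc lay nearer to those of plasma-like cells than to those of the B lineage. At D7, with 19 Igha and 45 Jchain UMIs over 3169 neutrophil-like cells, all 3 ratios were above those of plasma-like cells. Ighg2b, which no naive neutrophil-like cell held, had 104 UMIs in 33 D2 CTX neutrophil-like cells, the library with the Ighg2b cells.

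Ighm was higher against Igkc in several other classes, most of all in monocyte-, cDC- and pDC-like cells at D7. In monocyte-like cells it stood at 314.6, 170.7 and 177.6 CPM, in cDC-like cells at 743.7, 476.6 and 657.4 CPM, and in pDC-like cells at 1620, 1462 and 1085 CPM. Over neutrophil-like cells of the same library this was a log2 ratio of 1.98 (1.83 to 2.13), 1.09 and 3.91 for monocyte-like cells, 3.22 (3.05 to 3.38), 2.57 and 5.80 for cDC-like cells, and 4.34 (4.19 to 4.50), 4.19 and 6.52 for pDC-like cells. Igkc was lower in monocyte-like than in neutrophil-like cells of naive BM, by 0.64 log2 units. Ighm to Igkc was 1.54, 1.33 and 11.7 in monocyte-like cells, 3.31, 0.794 and 22.2 in cDC-like cells and 0.552, 3.19 and 11.5 in pDC-like cells, and without the single barcodes named above it was 6.91 in D2 CTX cDC-like and 0.984 in naive pDC-like cells. NK-like cells had 1.10, 0.943 and 6.83, the last on 41 Ighm and 6 Igkc UMIs, and T-like cells had 0.878 in naive BM. In T-like cells Ighm was 2.57 (2.35 to 2.80), 1.73 (1.53 to 1.93) and 2.03 (0.69 to 3.09) log2 units over neutrophil-like cells, above the monocyte-like values in naive and D2 CTX. GMP-like cells of D7 CTX had a ratio of Ighm to Igkc of 3.38 on 50 Igkc UMIs, and megakaryocyte-like cells had 21 Ighm and 7 Igkc UMIs. Thinned to 1000 UMIs, 69.8% to 77.1% of pDC-like cells, 40% to 48.3% of cDC-like cells and 13.9% to 26.3% of monocyte-like cells had an Ighm UMI, against 7.89%, 6.72% and 1.46% of neutrophil-like cells. From naive to D7 CTX, Igkc in neutrophil-like cells went from 317.7 to 18.7 CPM, while Ighm in cDC-like cells went from 743.7 to 657.4 CPM.

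**Figure D4:**
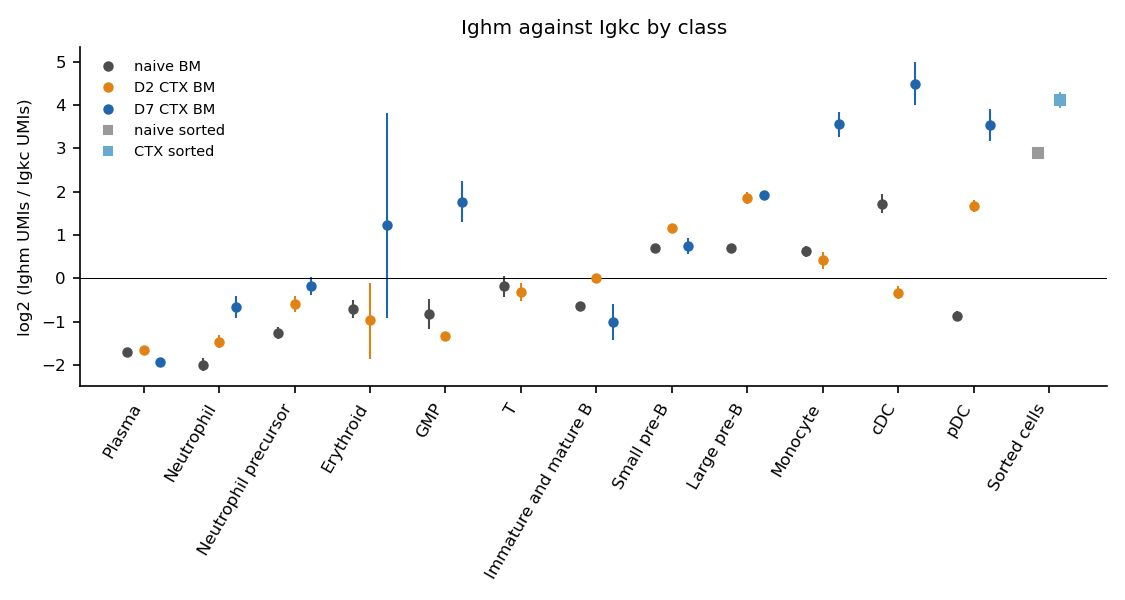
Log2 ratio of Ighm to Igkc UMIs by class and library with its 95% counting interval; for the sorted libraries all cells but the 4 naive barcodes of at least 1000 immunoglobulin UMIs are used. Plasma-like cells lie below 0 in each library, while monocyte-, cDC- and pDC-like cells of D7 CTX and both sorted libraries lie well above it. Whole BM points keep all their cells, unlike the sorted ones. Without such barcodes the plain ratio of D2 CTX GMP-like cells goes from 0.395 to 2.01. That of D2 CTX cDC-like cells goes from 0.794 to 6.91 and that of naive pDC-like cells from 0.552 to 0.984.

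Another gene outside the 8, Iglc3, was highest in pDC-like cells among the classes outside plasma-like and B lineage cells, at 523.9, 476.4 and 309.6 CPM, a log2 ratio of 8.15, 7.60 and 11.37 (9.50 to 14.43) over neutrophil-like cells, which held 11, 16 and 2 Iglc3 UMIs, although Iglc2 stood at 20.96, 31.5 and 1.38 CPM in the same cells. Iglc1 was spread over many cells at D7. It was found in 1082 cells, and outside plasma-like and B lineage cells it stood at 6.15 to 57.0 CPM in all 12 named classes, while the median of Iglc2 over these classes was 0.093 CPM. In D7 CTX neutrophil-like cells it was at 28.3 CPM, against 1.51 CPM in naive and 2.46 CPM in D2 CTX, so it was above Igkc (18.7 CPM) there. Iglc1 to Iglc2 was 80.7 in those cells and 0.276 in D7 CTX plasma-like cells, of which 1 was an Iglc1 cell with 1012 UMIs, 34.5% of the library's Iglc1. Of the Iglc1 UMIs of D7 CTX, 41.3% lay outside plasma-like and B lineage cells, against 7.02% in naive and 7.38% in D2 CTX. Ighg3, also outside the 8, had 746 UMIs in 171 cells of D7 CTX. Of these 23.5% lay outside plasma-like and B lineage cells, against 8.22% in naive and 0.911% in D2 CTX. The Iglc1 cell of D7 CTX was also its only Ighg3 cell, with 564 Ighg3 UMIs. Where the spread UMIs of either gene came from was not tested.

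The sorted monocyte libraries differed in the members, and most of the difference came from 4 barcodes. The 8 monocyte markers were found in both libraries, at 6294 and 6212 CPM in sum. The 8 members summed to 4482 CPM in naive and 176.4 CPM in CTX sorted cells. Igkc stood at 2979 and 9.57 CPM, Ighm at 695.2 and 165.3 CPM and Jchain at 259.1 and 0.769 CPM. Igha (318.6 CPM) and Ighg2b (198.9 CPM) of naive cells had 0 UMIs in CTX cells. Iglc2 stood at 25.2 and 0.349 CPM, Iglc1 at 5.39 and 0.280 CPM and Ighd at 0.449 and 0.175 CPM. The log2 ratio of CTX to naive was -8.28 (-8.46 to -8.11) for Igkc, -2.07 (-2.12 to -2.03) for Ighm, -8.40 (-9.07 to -7.80) for Jchain, -6.17 for Iglc2 and -4.27 for Iglc1. Set against 3 counts in the CTX library, Igha was 3040-fold lower and Ighg2b 1897-fold lower. The upper limits of their log2 ratios were -11.3 and -10.6. Ighd, with 10 and 5 UMIs, had -1.36 (-3.26 to 0.32). Of the 6 members that passed the filter all 6 were at least 1 log2 unit lower, beside 0.811% of 5549 genes, and 0.144% of genes were at least 1 unit higher.

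The 4 naive sorted barcodes had 26536, 25338, 23919 and 20486 immunoglobulin and Jchain UMIs among 36034, 49744, 37186 and 31678, with Ighm, Igha, Ighg2b and Ighm as their heavy chain genes. Together they held 99.2% of Igkc, 98.0% of Igha, 99.8% of Ighg2b, 98.3% of Jchain, 94.8% of Iglc2, 87.5% of Iglc1 and 74.0% of Ighm UMIs of the library, and 95.1% over the 8 members. Of them, 3 fell in a sorted cluster led by H2-Eb1, H2-Ab1 and Siglech, and the Igha barcode in a cluster led by Mxd3 and histone genes, with 18 Ccr2 and 14 F13a1 UMIs of monocyte genes, which the other 3 barcodes lacked. Ly6c2 was in all 4, at 18 to 43 UMIs. Plasma-like cells of whole BM held Ly6c2 too, such as 1 naive cell with 73 Ly6c2, 0 Ccr2 and 0 F13a1 UMIs. Their totals lay above the library's median of 10299 UMIs, and whether they held more than 1 cell was not tested. No CTX sorted barcode had 1000 such UMIs, and 1 of the 4 barcode sequences also occurred in the CTX sorted library, with 0 immunoglobulin UMIs among 844.

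Without these 4 barcodes the libraries drew close. The 8 members then summed to 220.2 CPM in 1887 naive cells, against 176.4 CPM in 2564 CTX cells, a log2 ratio of -0.32 (-0.38 to -0.26). Ighm stood at 181.9 and 165.3 CPM, a ratio of -0.14 (-0.20 to -0.08), and made up most of what was left. Igkc was at 24.4 and 9.57 CPM, a ratio of -1.35 (-1.57 to -1.14), and Jchain at 4.43 and 0.769 CPM, a ratio of -2.53 (-3.27 to -1.85). Iglc2 had -1.91 (-3.11 to -0.83), Iglc1 -1.28 (-2.72 to 0.05) and Ighd -1.37 (-3.27 to 0.31). Set against 3 counts in the CTX library, Igha (6.55 CPM) was 62.5-fold lower and Ighg2b (0.452 CPM, 10 UMIs) 4.31-fold lower. The upper limits of their log2 ratios were -5.65 and -1.54. On the log2(CPM + 1) scale 3 of the 8 members, Igkc, Igha and Jchain, were then at least 1 unit lower. Of these only Igkc reached the 20 CPM that the filter on low values asks for. Among the genes that passed that filter, 0.757% were at least 1 unit lower.

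**Figure D5:**
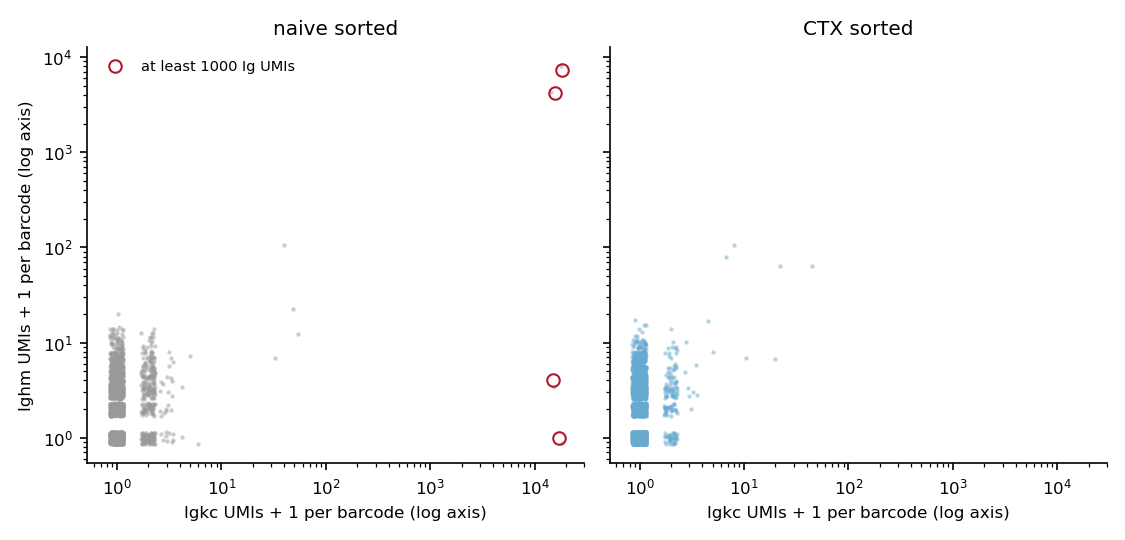
Ighm UMIs + 1 against Igkc UMIs + 1 (log axes) for each kept barcode of the naive and CTX sorted libraries; points are set slightly apart for sight and red rings mark barcodes of at least 1000 immunoglobulin and Jchain UMIs. The 4 ringed naive barcodes stand alone at the right, and in both libraries most cells have 0 or 1 Igkc UMIs and up to about 10 Ighm UMIs.

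Ighm was spread over the sorted cells. It had at least 1 UMI in 1320 of 1887 naive cells (70.0%) and 1698 of 2564 CTX cells (66.2%), with a median of 1 UMI per cell, against 330 and 151 cells with Igkc. Thinned to 2000 UMIs, 26.8% (24.8 to 28.9) of naive and 25.2% (23.5 to 26.9) of CTX cells had an Ighm UMI, while Igkc was in 3.82% and 1.12%, over the 1832 and 2493 cells deep enough and with the 4 barcodes left in. By sorted cluster Ighm ranged from 120.3 to 276.6 CPM in naive and from 113.8 to 414.2 CPM in CTX cells. A cluster of few UMIs per cell, led by Gm42418 and Ebf1, stood outside that range, with 769.5 CPM in naive and 448.7 CPM in CTX cells. The CTX value rested on 1 cell, which held 65 of the cluster's 97 Ighm UMIs. Without that cell the CTX level was 148.4 CPM, inside the range of CTX cells. The lowest was a cluster led by the neutrophil genes Retnlg, Mmp9 and Ly6g, at 6.73 CPM in 27 naive and 15.98 CPM in 58 CTX cells. The markers of B-like cells summed to 103.4 CPM in naive cells without the 4 barcodes and 112.8 CPM in CTX cells, with 0 and 1 of 8 genes at 0 UMIs. In whole BM the same 8 genes summed to 224.4, 233.2 and 227.1 CPM in neutrophil-like cells. In monocyte-like cells they summed to 176.1, 117.4 and 143.0 CPM, so such a sum does not by itself mark B-like cells. The part of B-like cells in the Ighm level of the sorted libraries was not tested.

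Genes that work with the members were taken from lists set by function. The secretion program (15 genes, among them Xbp1, the regulator of secretory capacity, Mzb1, a chaperone of antibody assembly, and Sdc1, the plasma cell surface proteoglycan) was highest in plasma-like cells for 14, 15 and 14 of 15 genes, when plasma-like, B lineage, pDC-, monocyte- and neutrophil-like cells are compared. These 15 genes include all 10 plasma markers that named the class, so this ranking was largely set by the naming. Xbp1 stood at 1305, 1083 and 1115 CPM in plasma-like cells and 50.5, 66.0 and 44.8 CPM in the B lineage. Mzb1 stood at 1602, 2143 and 2328 CPM in plasma-like cells and 282.9, 279.7 and 334.5 CPM in pDC-like cells. In the whole libraries, 3 of the 10 secretion genes that passed the filter were at least 1 log2 unit higher in D2 CTX than naive (5.4% of all genes) and none lower. In D7 CTX 3 of 10 were lower than naive, near the 22.3% of all genes, and none higher.

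For genes of earlier B cell stages the counts are small. Of the surrogate light chain and receptor genes (Vpreb1, Vpreb2, Vpreb3, Igll1, Cd79a and Cd79b), 5 passed, with 2 lower in D2 CTX (3.21% of all genes) and 5 lower in D7 CTX than naive (22.3% of all genes). Of the rearrangement genes, 2 passed and both were lower in D7 CTX. Of the other constant genes, 3 of the 4 that passed were at least 1 unit higher in D2 CTX than naive (5.4% of all genes). The other 1, Ighg2c, was lower (3.21% of all genes). In D7 CTX 2 of the 3 that passed were lower than naive (22.3% of all genes). These calls rest in part on single cells. In D2 CTX 1 cell held 98.4% of Ighg1 UMIs and 1 cell 67.2% of Ighg3 UMIs, and 1 naive cell held 99.8% of Ighg2c UMIs. Variable genes, summed by family, gave 16.04, 46.4 and 5.80 CPM for heavy chain, 34.9, 64.2 and 4.84 CPM for kappa and 16.4, 71.1 and 2.40 CPM for lambda genes, the same order as the constant genes. They stood far below the constant genes, in libraries read from the 3′ end. Pigr, the receptor that carries polymeric IgA and IgM across epithelia, did not pass in any comparison.

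The genes most like Jchain over 72 sums of cluster by library, among 11103 genes and with immunoglobulin genes left out, were Tnfrsf17 (Pearson r 0.70), Spon1 (0.67), Sel1l (0.65), Oosp1 (0.64) and Chst1 (0.63). Those most like Ighm were Mzb1 (0.91), Cd79a (0.86), Pou2af1 (0.86), Fcrla (0.86) and Irf4 (0.86). These values describe likeness of log2(CPM + 1) across sums that share libraries and depth, and carry no p.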

How the data were processed

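The whole BM and sorted libraries were prepared by the authors with 10x 3′ V3 reagents, sequenced on an Illumina NovaSeq and processed with Cell Ranger 3.1 on mm10 (Seurat 5.0 in the submitters' notes). The annotation release was not given in the sources used here. The deposited values were raw UMI counts per gene and barcode, and the barcodes were fewer than the cells the study states. Whether the authors' pooling step had altered depth before deposit was not stated.

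Cells with at least 200 genes and under 20% mitochondrial UMIs were kept, and counts were summed per library and class and scaled to CPM. Groups came from the labels. With 1 library per group no test was run; intervals are exact Poisson, Clopper-Pearson or conditional binomial at 95% and cover counting error only, and bounds use a floor of 3 counts. A gene was called at 1 log2 unit of CPM + 1, if it had at least 200 UMIs over the libraries compared and 20 CPM in 1. Cells were clustered in Seurat 5.3.0 (R 4.3.3; RPCA integration, 2000 variable genes, 30 components, resolution 0.8) without 393 immunoglobulin genes and Jchain. Doublets were left in, since the sources used here describe no removal, and were taken out by Scrublet ranking (scanpy 1.11.5, 0.8% per 1000 cells) as an alternative. The ratio and interval code was tested on simulated data. Positions and sequences came from the GRCm38 genome and annotation.

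The members, marker genes and gene lists were chosen with earlier results of these data known. All 8 members were named with values in each library, other genes by counts over fixed lists, and the 5 genes most like Jchain and Ighm by correlation. The result of 1 further list is not reported here.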

Additional observations from a re-analysis of the deposited data

Results flagged for a closer look

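For each of the 8 members the D2 CTX and D7 CTX libraries lay on opposite sides of the naive library, so that the log2 ratio to naive was positive at D2 and negative at D7. The values were 1.03 and -1.91 for Igkc, 0.83 and -2.37 for Ighm, 0.24 and -4.21 for Ighd, and 1.72 and -1.11 for Igha. They were 3.53 and -3.23 for Ighg2b, 1.23 and -1.62 for Iglc1, 0.51 and -1.87 for Iglc2, and 1.66 and -1.16 for Jchain. Each rests on 1 pooled library, and the difference between the days was not tested. The naive library is shared by both ratios.

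Barcodes that the cell filter left out, which enter no comparison, also held the members. In D2 CTX BM 482 such barcodes had 2000.45 CPM of the 8 members, above 1173 CPM in 545 naive barcodes and 282.7 CPM in 315 D7 CTX barcodes. In D2 CTX, 428 of these UMIs (25.9%) came from 1 barcode, and 1486 CPM were left without it. In naive sorted barcodes outside the filter the members had 4284 CPM, of which 60.3% came from 1 barcode.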

How the results depend on the processing

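No paired analysis was possible because each group holds 1 library. For the same reason no replicate was left out. No member's library ratio changed sign under any alternative run, but the balance of higher and lower calls over all genes turned round in 2 comparisons when scaled by gene ratios (D2 CTX and D7 CTX against naive). The limits are 1 library per group, single cells that carry most UMIs of a rare isotype, and class names rebuilt from markers. The causes of the shifts below were not tested, except where a total or depth was itself changed.

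Without barcodes of at least 1000 immunoglobulin UMIs, an alternative chosen after seeing the data, 3 members in place of 5 were at least 1 log2 unit higher in D2 CTX than naive, and 3 in place of 7 at least 1 unit lower in CTX than naive sorted cells. These counts were made over all 8 members, with no filter on low values. Under every other setting tried the counts of members past 1 log2 unit stayed within 1.5 times of 5, 8, 8 and 7.

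Counts over all genes depended on filter and scaling. With no filter on low genes, D2 CTX against naive gave 815 higher and 377 lower (336 and 200 with it), D7 CTX against naive 2793 lower (1250), D7 CTX against D2 CTX 128 higher and 4535 lower (68 and 2038), and the sorted pair 39 higher and 101 lower (8 and 45). Scaled by the median of gene ratios, D2 CTX against naive gave 190 higher and 279 lower, D7 CTX against naive 455 higher and 354 lower (79 and 1250 by total), D7 CTX against D2 CTX 429 higher and 498 lower, and the sorted pair 5 higher.

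With immunoglobulin genes kept in the clustering, the 8 members stood at 620029 CPM in naive plasma-like cells, 8081 CPM in the naive B lineage and 432 CPM in naive neutrophil-like cells, and plasma-like cells held 75.9% (naive) and 91.4% (D7 CTX) of member UMIs. With the stricter cell filter they held 71.6%, 81.4% and 91.3% in the naive, D2 and D7 libraries. Per 1000000 UMIs of all other genes, plasma-like cells had 1.77e+06, 1.31e+06 and 1.49e+06, and the B lineage 9753 (naive) and 17036 (D2 CTX). Without ranked doublets the B lineage had 9962, 17197 and 3602 CPM in the 3 libraries, and at resolution 0.4 it had 16918 CPM in D2 CTX.

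Shares of cells with a UMI followed depth. Igkc was in 16.2%, 12.4% and 1.14% of naive, D2 CTX and D7 CTX neutrophil-like cells thinned to 500 UMIs and in 35.0%, 24.6% and 3.54% at 2000 UMIs, or in 8.38%, 2.74% and 0.0318% with at least 2 UMIs asked for. Ighm was in 14.5% of naive and 14.0% of CTX sorted cells at 1000 UMIs, in 43.0% and 41.6% at 4000 UMIs, and in 6.004% and 4.65% with at least 2 UMIs.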
